A study of Mus musculus with 12 samples.

Results

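The genes described here encode cytosolic and mitochondrial heat shock proteins, their co-chaperones, 2 heat shock transcription factors and 7 subunits of the chaperonin CCT. They were taken by gene name from a fixed list of 32, and all 32 were found in both deposited expression tables, out of 24318 gene rows. Polyadenylated RNA was sequenced from N2a, a neuroblastoma cell line of the mouse, in 12 libraries that form 3 groups of 4. Cells received brain-derived extracellular vesicles (BDEVs, small membrane-bound particles that cells release) of the SE group, BDEVs of the CON group, or vehicle. The series title ties SE to status epilepticus, seizure activity that does not stop; what CON abbreviates is not spelled out. The sources used here give no dose, duration or animals for the vesicles. They also do not say if each library is its own culture, so the p-values cover the spread among libraries alone, and that spread may be technical.

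Heat shock proteins bind unfolded or newly made polypeptides, and many of them, though not the small heat shock proteins, use ATP to help these fold. Hsp70 proteins work with J-domain proteins, which deliver clients, and with nucleotide exchange factors such as the Hsp110 and BAG proteins, which release them. Hsp90 takes over many clients with the help of its own co-chaperones, and the ring-shaped CCT complex folds actin and tubulin. When unfolded proteins accumulate, the transcription factor HSF1 binds heat shock elements, inverted repeats of the unit NGAAN, and raises the transcription of many of these genes together.

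Promoter sequences were looked up by symbol in a RefSeq table on GRCm38.p6 (250 bases before to 50 bases after the start, 300 in all), a newer build than the mm9 of the expression files. Of the 32 genes, 24 were matched; Hspa8, Hspa9, Cryab, Hsp90aa1, Hsp90ab1, St13, Hsf1 and Cct4 were not. A row of 3 units was searched as GAANNTTCNNGAA and, for the other strand, TTCNNGAANNTTC. It was found for 4 of the 24 genes (16.7%), Hspd1, Hspe1, Hsph1 and Chordc1, against 0.662% of all 27025 genes with a promoter in the table. A pair of units, GAANNTTC or TTCNNGAA, each its own reverse complement and each contained in the longer motif, was found for 13 of the 24 (54.2%) against 17.0% of all. Both counts are by gene, so the stretch that Hspd1 and Hspe1 share counts for both genes. Among the pairs, the same stretch in Hspa1a and Hspa1b also counts for both. The sequences below show the 3-unit matches, which include the stretch that Hspd1 and Hspe1 share, and 1 upstream stretch that is the same in the near-identical genes Hspa1a and Hspa1b. They are printed 5′ to 3′ with matched bases in capitals, and a match is a description of these letters, not a shown binding site.
Hspe1 and Hspd1, the 215 bases between the Hspe1 start and the nearer Hspd1 start, chr1:55087933-55088147, plus strand: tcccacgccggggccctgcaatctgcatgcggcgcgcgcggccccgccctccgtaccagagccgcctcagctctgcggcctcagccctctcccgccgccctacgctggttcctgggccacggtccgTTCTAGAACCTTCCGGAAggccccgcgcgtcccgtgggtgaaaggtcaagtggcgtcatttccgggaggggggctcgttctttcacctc
Hsph1, 30 bases just inside the transcript, chr5:149636287-149636316, minus strand: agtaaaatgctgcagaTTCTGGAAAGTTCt
Chordc1, 30 bases across the start, chr9:18292260-18292289, plus strand: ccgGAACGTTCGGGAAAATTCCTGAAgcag
Hspa1a, upstream, chr17:34972227-34972306, minus strand: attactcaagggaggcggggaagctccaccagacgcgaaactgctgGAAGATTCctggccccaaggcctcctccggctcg
Hspa1b carries the same 80 bases at chr17:34959309-34959388, minus strand, and both genes have the same base at 247 of the 250 positions before the start.

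Expression is given in FPKM, fragments per kilobase of transcript after scaling to the mapped fragments of a library, as the authors made it. Library totals are not part of the tables; from the lowest nonzero values, depths were estimated at 12600000 to 15000000 fragments in the BDEV libraries and 14400000 to 15900000 in Vehicle. All 9 markers of sympathetic neuroblastoma cells were above 1 FPKM in each group, summing to 965 to 1118 FPKM per library. Summed levels per library were 0.689 to 1.25 FPKM over 6 astrocyte markers, 1.41 to 2.47 FPKM over 7 microglia markers and 2.63 to 3.65 FPKM over 5 endothelial markers. C1qb of microglia, Cldn5 of endothelium, Opalin of oligodendrocytes and Neurod6 of forebrain neurons were listed at 0 in every group. Among libraries, SE-BDEV replicate 2 held the extreme value of a gene most often: it had the lowest value of the 12 libraries for 18.4% and the highest for 15.9% of 11312 genes, and its correlations with the other SE-BDEV libraries across genes were 0.990 to 0.993. Those of SE-BDEV replicate 3 reached from 0.990 to 0.994. Results of SE-BDEV against Vehicle are given with and without SE-BDEV replicate 2 for Hspa9, Lonp1, Hsph1, Bag3, Hspa8 and Dnajb1. Most other genes are given only with it.

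Chaperone transcripts made up 2.08% to 2.11% of the summed FPKM in the Vehicle libraries. Hsp90ab1, the constitutive cytosolic Hsp90, was the most abundant of the 32 and ranked 12th of all genes in Vehicle at 2499 ± 36.2 FPKM (SD, n = 4). Hspa8, the constitutive Hsp70 Hsc70, followed at 2103 ± 21.2 FPKM, rank 24. Next came the CCT subunit gene Cct2 at 696 ± 8.99, the stress-inducible Hsp90aa1 at 636 ± 2.94 and the mitochondrial chaperonin gene Hspd1 (Hsp60) at 530.0 ± 7.79 FPKM. At the other end, the strictly inducible Hsp70 genes Hspa1a and Hspa1b and the small heat shock protein gene Hspb1 stayed below 1 FPKM in all 12 libraries. Hspa1a and Hspa1b together gave 0.102 to 0.403 FPKM per library, and reads of these near-identical copies cannot be assigned with certainty. Hspb1 was listed at 0 in 8 of the 12 libraries and reached 0.266 FPKM in Vehicle replicate 2. These 3 genes were below the filter of a mean of 1 FPKM and were not tested, which left 29. The other small heat shock protein gene, Cryab, was expressed at 18.8 ± 1.38 FPKM in Vehicle, and its locus overlaps that of Hspb2.

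**Figure D1:**
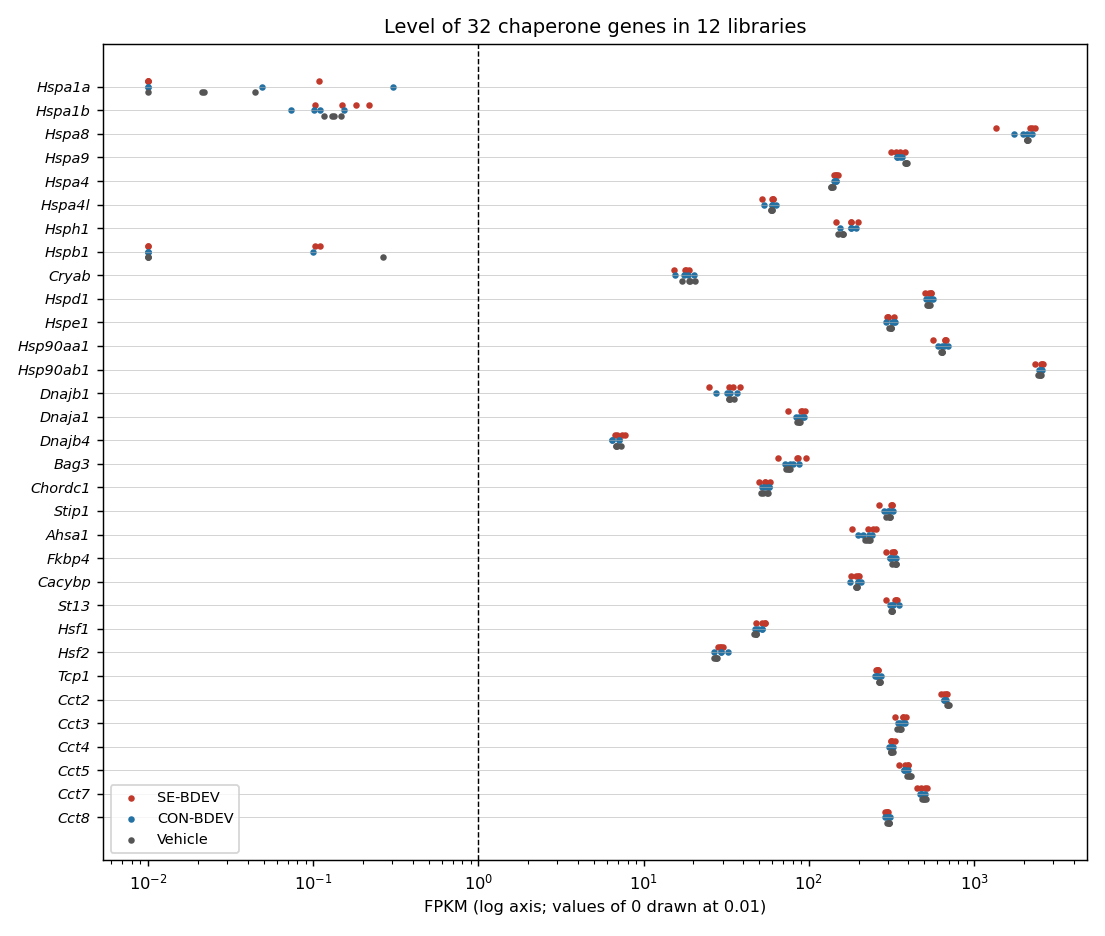
FPKM (log axis) of the 32 chaperone genes in each of the 12 libraries, coloured by group, with values of 0 drawn at 0.01 and a dashed line at the filter of 1 FPKM. Hspa1a, Hspa1b and Hspb1 lie left of the line in every library, while Hsp90ab1 and Hspa8 lie farthest right, with Vehicle means of 2499 and 2103 FPKM.

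The first question was whether vesicles of either source changed these genes against vehicle. Tests were made on log2(FPKM + 1) with limma, and a gene was called at an adjusted p under 0.05 over all genes tested. With SE-BDEVs 0 of 29 chaperone genes passed, where 0.919% of all 11311 genes did (0.292% rose and 0.628% fell); 5 of the 29 (17.2%) had an unadjusted p under 0.05, against 14.8% of all genes. With CON-BDEVs 1 of 29 passed, Hspa9, which fell, where 2.84% of all 11320 genes passed (1.02% rose and 1.82% fell); again 5 of the 29 had an unadjusted p under 0.05, against 19.1% of all. Log2 fold changes against Vehicle ran from −0.16 to 0.15 with SE-BDEVs and from −0.14 to 0.16 with CON-BDEVs. Their medians over the 29 genes were −0.0051 and −0.0007, beside 0.0094 and 0.0043 over all genes. The authors' deposited table called 0 of the 29 in either comparison, where it called 1.17% and 1.8% of all genes it tested. There 3 and 2 of the 29 had an unadjusted p under 0.05 by the authors' deposited table, with q-values of at least 0.369 and 0.204 (Hsph1 in both). Both comparisons use the same 4 Vehicle libraries. In these bulk samples, a change in the RNA of each cell and a change in the mixture of cells cannot be told apart.

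Hspa9, the mitochondrial Hsp70 (mortalin) that pulls proteins into the matrix and folds them there, was the gene that passed. It lies on chromosome 18, 35097068 to 35114005 in mm9. Its level was 342, 366, 356 and 341 FPKM in CON-BDEV replicates 1 to 4 and 395, 386, 387 and 381 FPKM in Vehicle replicates 1 to 4. Every CON-BDEV library lay below every Vehicle library, and the mean fell by 9.28% (a log2 fold change of −0.14 with a standard error of 0.03; limma adjusted p = 0.0271). SE-BDEV replicates 1 to 4 had 338, 382, 315 and 354 FPKM. Replicate 2 was at the level of Vehicle and the other 3 were below it, so that the groups overlapped. The mean was lower by a similar amount, with a log2 fold change of −0.16 ± 0.05 and a limma adjusted p of 0.181, and without SE-BDEV replicate 2 the change was −0.21 with a limma adjusted p of 0.0229. For CON-BDEV the limma adjusted p passed in 2 of the 8 fits that left out a library, those without CON-BDEV replicate 1 (0.0333) or 2 (0.0117). It was 0.0540 and 0.0834 without CON-BDEV replicates 3 and 4, and 0.0935, 0.0776, 0.0802 and 0.0595 without Vehicle replicates 1 to 4. With all libraries the limma adjusted p of Hspa9 for CON-BDEV was 0.0645 with no filter on low values, 0.0828 without a variance trend and 0.184 in a fit of all 12 libraries.

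The other mitochondrial chaperones among the 32 were not called in either comparison. Hspd1, which forms the Hsp60 barrel, had log2 fold changes of 0.01 with SE-BDEVs and 0.02 with CON-BDEVs (limma adjusted p = 0.960 and 0.802). Hspe1, the Hsp10 lid of the same chaperonin, had −0.03 and 0.02 (limma adjusted p = 0.695 and 0.799). The ratio of Hspd1 to Hspe1, whose starts flank the shared stretch printed above, stayed between 1.60 and 1.83 in all 12 libraries. On the list of 76 other chaperone and protein quality control genes, of which 69 were tested, 2 fell and 0 rose with CON-BDEVs and 0 passed with SE-BDEVs (10 and 7 at an unadjusted p under 0.05). The share of 2 in 69 is near the 2.84% of all genes that passed, and the unadjusted shares were 14.5% and 10.1%, against 19.1% and 14.8% of all genes. The genes that fell were Lonp1, the protease of the mitochondrial matrix that removes misfolded proteins, and Trap1, the mitochondrial Hsp90. Other genes of mitochondrial quality control on the list, Clpp, Clpx, Hscb, Yme1l1 and Afg3l2, had log2 fold changes from −0.04 to 0.05 with CON-BDEVs and limma adjusted p of at least 0.604.

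Lonp1 stood at 78.6, 98.3, 86.5 and 84.8 FPKM in CON-BDEV replicates 1 to 4, at 83.0, 107, 75.6 and 89.7 FPKM in SE-BDEV replicates 1 to 4, and at 122, 106, 112 and 109 FPKM in Vehicle replicates 1 to 4. As with Hspa9, SE-BDEV replicate 2 was the 1 BDEV library within the Vehicle range. The log2 fold change was −0.36 ± 0.06 (standard error) with CON-BDEVs (limma adjusted p = 0.0139) and −0.34 ± 0.09 with SE-BDEVs (limma adjusted p = 0.118). Without SE-BDEV replicate 2 the limma adjusted p for SE-BDEV was 0.00995. The CON-BDEV call passed in 8 of 8 fits that left out a library, with limma adjusted p of at most 0.0481, and in 13 of all 16 alternatives. It was lost with no filter on low values, with the replicate block and in the fit of all 12 libraries, with limma adjusted p up to 0.0744. Trap1 fell with CON-BDEVs from 79.1 ± 0.588 to 73.6 ± 0.756 FPKM, means with their SD over 4 libraries, which is −0.10 on the log2 scale (limma adjusted p = 0.0460). Its SE-BDEV mean was 74.5 ± 1.80 FPKM (limma adjusted p = 0.222), and the CON-BDEV call passed in 1 of the 8 fits, the one without CON-BDEV replicate 1 (0.0467, and up to 0.130 in the others).

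Among the Hsp110 proteins, which exchange the nucleotide of Hsp70, Hspa4 was higher in every BDEV library than in every Vehicle library. Its level was 149, 143, 147 and 146 FPKM in SE-BDEV replicates 1 to 4, 147, 142, 145 and 144 FPKM in CON-BDEV and 136, 135, 137 and 140 FPKM in Vehicle. The difference was small and passed in neither comparison: the means were 6.47% and 5.09% higher (log2 fold change 0.09 ± 0.03 and 0.07 ± 0.02, standard error; limma adjusted p = 0.179 and 0.142). Taking all 8 BDEV libraries against Vehicle, it was 0.08 with a limma adjusted p of 0.0677. In that comparison 0 of the 29 genes passed, where 3.37% of all 11312 genes did, 7 of the 29 (24.1%) having an unadjusted p under 0.05, against 18.8% of all. It uses the same libraries as the first 2 comparisons and adds no independent support.

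Groups without overlap were about as frequent as in the background. With SE-BDEVs 4 of the 29 genes did not overlap Vehicle, Hspa4 and Hsf2 on the higher side and Tcp1 and Cct2 on the lower, where 10.2% of all genes did not (5.77% higher, 4.39% lower). With CON-BDEVs they were 3, Hspa4 higher and Hspa9 and Cct2 lower, against 11.9% of all (5.68% higher, 6.24% lower). Over all 8 BDEV libraries they were 2, Hspa4 and Cct2, against 5.19%.

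Hsph1 (Hsp105), the heat-inducible Hsp110 (chromosome 5, 150419419 to 150438890 in mm9), had the largest positive log2 fold change of the 29 genes in both comparisons. It stood at 180, 145, 199 and 180 FPKM in SE-BDEV replicates 1 to 4, at 193, 154, 181 and 179 FPKM in CON-BDEV replicates 1 to 4 and at 151, 160, 160 and 159 FPKM in Vehicle replicates 1 to 4. In both BDEV groups replicate 2 lay within or below the Vehicle range and the other 3 libraries lay above every Vehicle library. With all libraries the log2 fold change was 0.15 ± 0.08 for SE-BDEV and 0.16 ± 0.06 for CON-BDEV (standard error; limma adjusted p = 0.389 and 0.161). Without replicate 2 of the BDEV group it was 0.24 (limma adjusted p = 0.0156) and 0.23 (limma adjusted p = 0.00953). No other left-out library gave a call for Hsph1 in these comparisons. The change was smallest without SE-BDEV replicate 3, at 0.09 (limma adjusted p = 0.621), and without CON-BDEV replicate 1, at 0.12 (limma adjusted p = 0.224). Hspa4l, the third Hsp110 gene, had log2 fold changes of −0.03 and −0.01, and its lowest values in both BDEV groups, 52.3 and 53.4 FPKM, were also those of replicate 2.

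**Figure D2:**
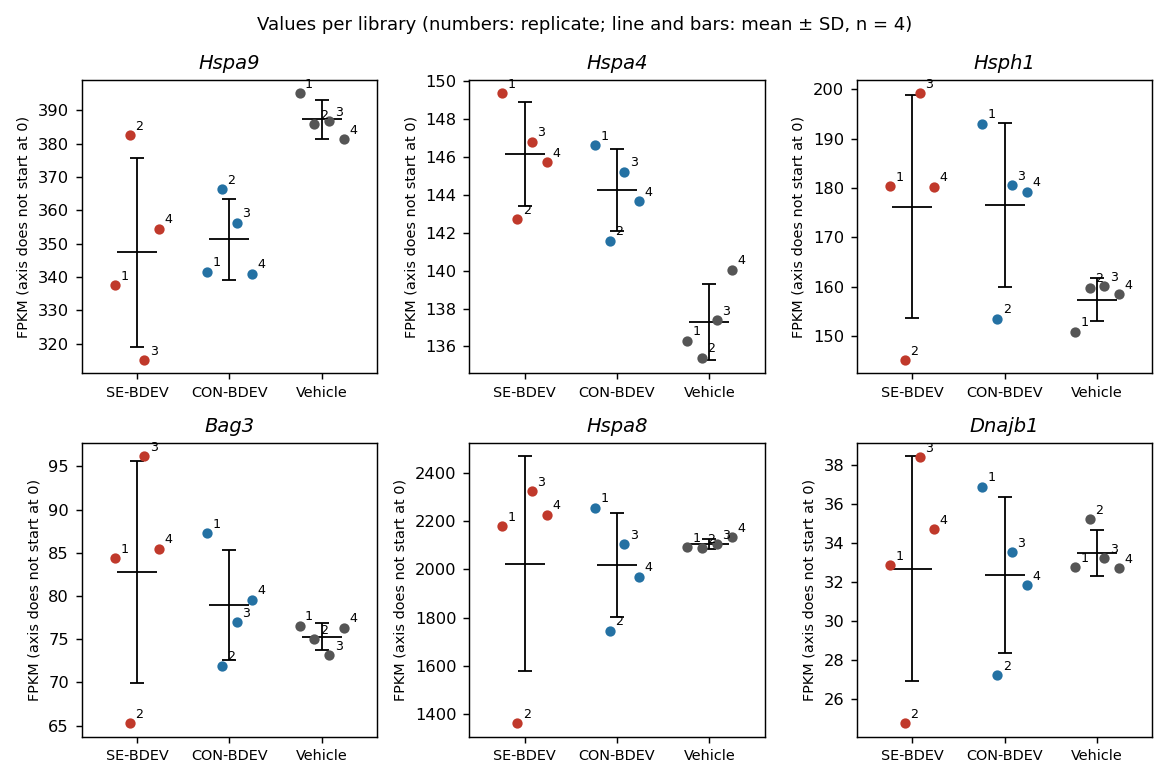
FPKM per library of Hspa9, Hspa4, Hsph1, Bag3, Hspa8 and Dnajb1 in the 3 groups (points, numbered by replicate; line and bars, mean ± SD, n = 4; the axes do not start at 0). For Hsph1, Bag3, Hspa8 and Dnajb1 replicate 2 is the lowest library of each BDEV group, while for Hspa9 it is the highest.

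Bag3, which links Hsp70 to small heat shock proteins and to autophagy (chromosome 7, 135667096 to 135690493 in mm9), varied in the same way. Its level was 84.4, 65.2, 96.1 and 85.4 FPKM in SE-BDEV replicates 1 to 4, 87.3, 71.9, 77.0 and 79.6 FPKM in CON-BDEV and 76.6, 75.0, 73.1 and 76.3 FPKM in Vehicle. Replicate 2 was below every Vehicle library in both BDEV groups, whereas the other 6 BDEV libraries were above every Vehicle library. The log2 fold changes were 0.12 ± 0.09 and 0.06 ± 0.05 (standard error; limma adjusted p = 0.570 and 0.514). Without replicate 2 of the BDEV group, the change was 0.23 for SE-BDEV (limma adjusted p = 0.0297) and 0.11 for CON-BDEV (limma adjusted p = 0.186). Other libraries moved it down. It was 0.05 without SE-BDEV replicate 3 (limma adjusted p = 0.859) and 0.02 without CON-BDEV replicate 1 (limma adjusted p = 0.839).

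Hspa8, the client-binding Hsp70 itself, showed the widest span. SE-BDEV replicates 1 to 4 had 2179, 1361, 2323 and 2227 FPKM, CON-BDEV replicates 2256, 1746, 2103 and 1968 FPKM, and Vehicle replicates 2090.2, 2087, 2103 and 2133 FPKM. Replicate 2 was the lowest library of each BDEV group, and the SE-BDEV one lay below the Vehicle mean by 0.63 on the log2 scale. The SD of log2(FPKM + 1) was 0.36 within SE-BDEV and 0.16 within CON-BDEV, against 0.01 within Vehicle. Group means differed little, with log2 fold changes of −0.09 and −0.07 (limma adjusted p = 0.813 and 0.603), and that of SE-BDEV changed sign to 0.09 without replicate 2.

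The J-domain genes, partners of Hsp70, had no called difference, and of these Dnajb1 was likewise widely spread within both BDEV groups. Dnajb1, the main inducible J-domain protein of the cytosol, stood at 32.9, 24.8, 38.4 and 34.7 FPKM in SE-BDEV replicates 1 to 4 and at 36.9, 27.2, 33.5 and 31.8 FPKM in CON-BDEV, around the 32.7 to 35.2 FPKM of Vehicle. Replicate 2 lay below every Vehicle library in both BDEV groups, and the log2 fold changes of the groups were −0.05 each (limma adjusted p = 0.864 and 0.731). Without replicate 2 of the BDEV group they changed sign, to 0.07 for SE-BDEV and 0.02 for CON-BDEV (limma adjusted p = 0.472 and 0.838). Dnaja1 ranged from 74.3 FPKM in SE-BDEV replicate 2 to 94.8 FPKM in SE-BDEV replicate 3, with Vehicle at 84.3 to 88.3 FPKM. Dnajb4, expressed at 6.93 ± 0.242 FPKM in Vehicle, had log2 fold changes of 0.04 and −0.03.

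Of the cytosolic Hsp90 genes and the Hsp90 co-chaperones among the 32, 0 were called. Hsp90aa1 averaged 644 ± 52.5 FPKM with SE-BDEVs, 647 ± 37.1 with CON-BDEVs and 636 ± 2.94 with vehicle (SD, n = 4 each), and Hsp90ab1 was 2508 ± 127, 2521 ± 50.8 and 2499 ± 36.2 FPKM. Their ratio stayed between 3.69 and 4.11 in all libraries. Ahsa1, which activates the Hsp90 ATPase, ranged from 182 FPKM in SE-BDEV replicate 2 to 253 FPKM in SE-BDEV replicate 3. Stip1, which hands clients from Hsp70 to Hsp90, was 265 FPKM in SE-BDEV replicate 2 and 314 to 319 FPKM in the other 3. The immunophilin gene Fkbp4, the Hsp70-interacting St13, Cacybp and the Hsp90-binding Chordc1 had log2 fold changes between −0.07 and 0.04 in both comparisons, with limma adjusted p of at least 0.370.

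The 2 heat shock factor genes lay on the other side of the Vehicle mean from most chaperones in replicate 2. In both replicate 2 libraries the chaperone genes Hspa4 and Cct4 did so too. Hsf1 stood at 47.6, 54.3, 54.0 and 52.0 FPKM in SE-BDEV replicates 1 to 4, at 46.9, 51.9, 49.3 and 52.1 FPKM in CON-BDEV and at 46.6 to 48.2 FPKM in Vehicle. SE-BDEV replicate 2 was thus the highest of the 12 libraries for Hsf1, the gene of the main activator, and the lowest of the 12 for Hspa8, Hsph1 and Dnajb1. SE-BDEV replicate 3, at nearly the same Hsf1 level (54.0 FPKM), was instead the highest of the 12 for Hspa8, Hsph1 and Dnajb1. Hsf2, the gene of another factor that can pair with HSF1, averaged 29.1 ± 0.902 FPKM with SE-BDEVs, 29.4 ± 2.24 with CON-BDEVs and 27.3 ± 0.447 with vehicle (SD, n = 4 each), and its highest value, 32.2 FPKM, was that of CON-BDEV replicate 2. Log2 fold changes of Hsf1 were 0.12 ± 0.04 and 0.07 ± 0.04, and those of Hsf2 0.09 ± 0.04 and 0.10 ± 0.05 (standard error; limma adjusted p from 0.217 to 0.321). RNA levels of these factors do not show how active the proteins were.

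Genes of the CCT chaperonin, whose subunits assemble in equal numbers, were expressed at unequal RNA levels. In Vehicle the order was Cct2 (696 ± 8.99 FPKM), Cct7 (498 ± 11.1), Cct5 (404 ± 7.40), Cct3 (355 ± 9.65), Cct4 (315 ± 4.05), Cct8 (304 ± 3.92) and Tcp1 (267 ± 2.26; SD, n = 4 each). Cct3, at 341 to 362 FPKM, and Cct4, at 312 to 321 FPKM, did not overlap, nor did the other neighbours in this order. The subunit gene Cct6a from the second list lay between Cct3 and Cct4 at 329.8 ± 3.19 FPKM. Against Vehicle, Cct2 was lower in every BDEV library, at 630 to 683 FPKM beside 687 to 708 FPKM (log2 fold change −0.07 in both comparisons; limma adjusted p = 0.325 and 0.132). Cct5 had −0.09 and −0.08 (limma adjusted p = 0.351 and 0.131), and without CON-BDEV replicate 1 it passed for CON-BDEV with −0.10 (limma adjusted p = 0.0471), where 4.91% of all 11323 genes passed. Cct3, with 0.04 and 0.03, was on the other side of 0. The loci of Tcp1, Cct7 and Cct8 overlap other genes in the deposited table, as does that of Dnaja1, and no source used here gives the strand setting of the counting.

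**Figure D3:**
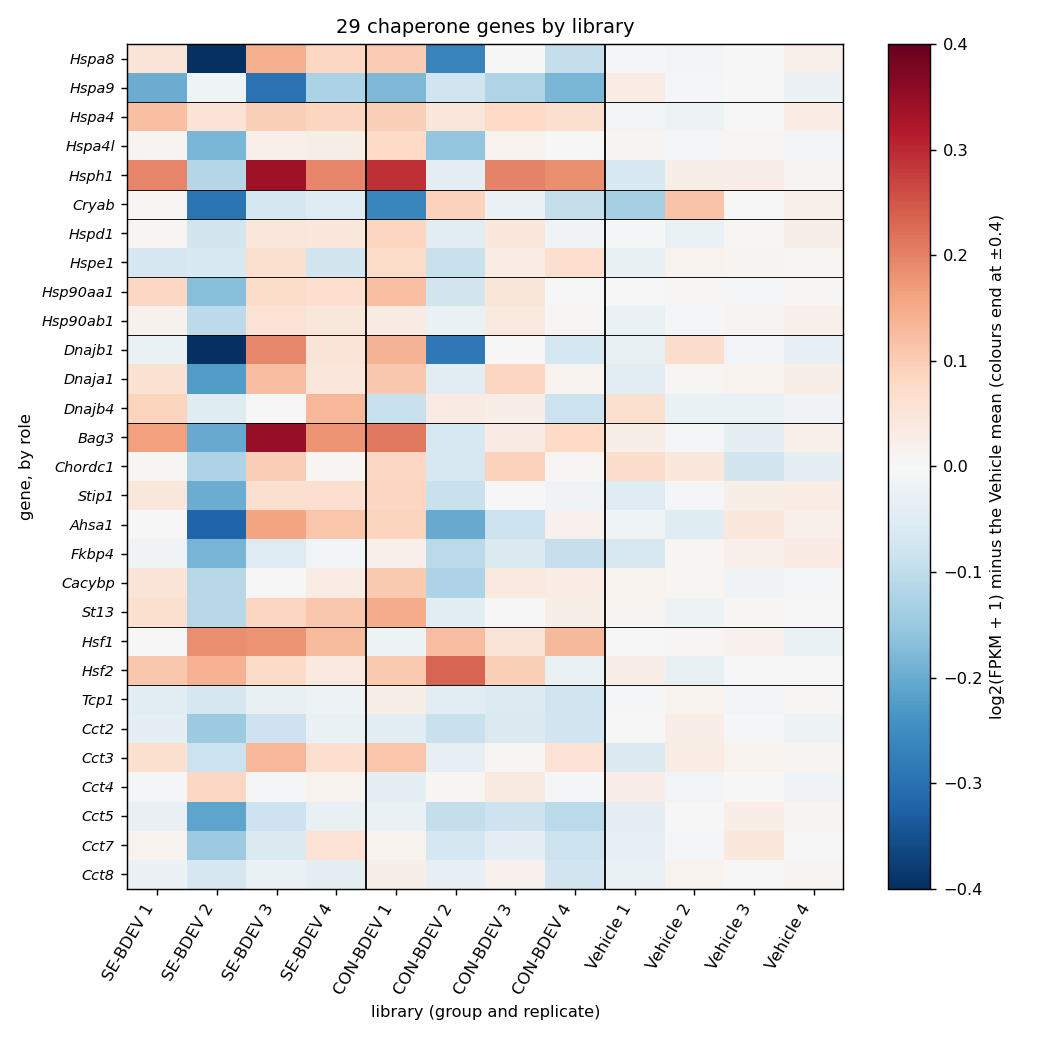
Log2(FPKM + 1) of each of the 29 tested genes (rows, by role) in each library (columns) minus the mean of the 4 Vehicle libraries, with the colour scale ending at ±0.4. Blue marks values below that mean, which fill 25 of 29 rows in SE-BDEV replicate 2 and 23 in CON-BDEV replicate 2. Hspa4, Hsf1, Hsf2 and Cct4 lie above the mean in both.

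Across the set, the low values of the BDEV groups gathered in replicate 2. SE-BDEV replicate 2 had the lowest value of all 12 libraries for 19 of 29 genes, against 18.4% of all genes, and the lowest of its group for 24 of 29, against 35.8%. It was below the Vehicle mean for 25 of 29 genes, against 50% of all. Its median over the 29 genes was −0.12 from the Vehicle mean on the log2(FPKM + 1) scale, beside 0.00 over all genes. CON-BDEV replicate 2 was the lowest of its group for 19 of 29 genes, against 30.5% of all, was below the Vehicle mean for 23, against 50.2% of all, and had a median of −0.06. For 13 of the 29 genes these were the 2 lowest of all 12 libraries, against 8.03% of all genes: Hspa8, Hspa4l, Hspd1, Hsp90aa1, Dnajb1, Dnaja1, Bag3, Stip1, Ahsa1, Fkbp4, Cacybp, St13 and Cct2. On the higher side, CON-BDEV replicate 1 (median 0.08) and SE-BDEV replicate 3 (0.06) each held the highest value for 9 genes, against 8.25% and 15.5% of all genes.

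**Figure D4:**
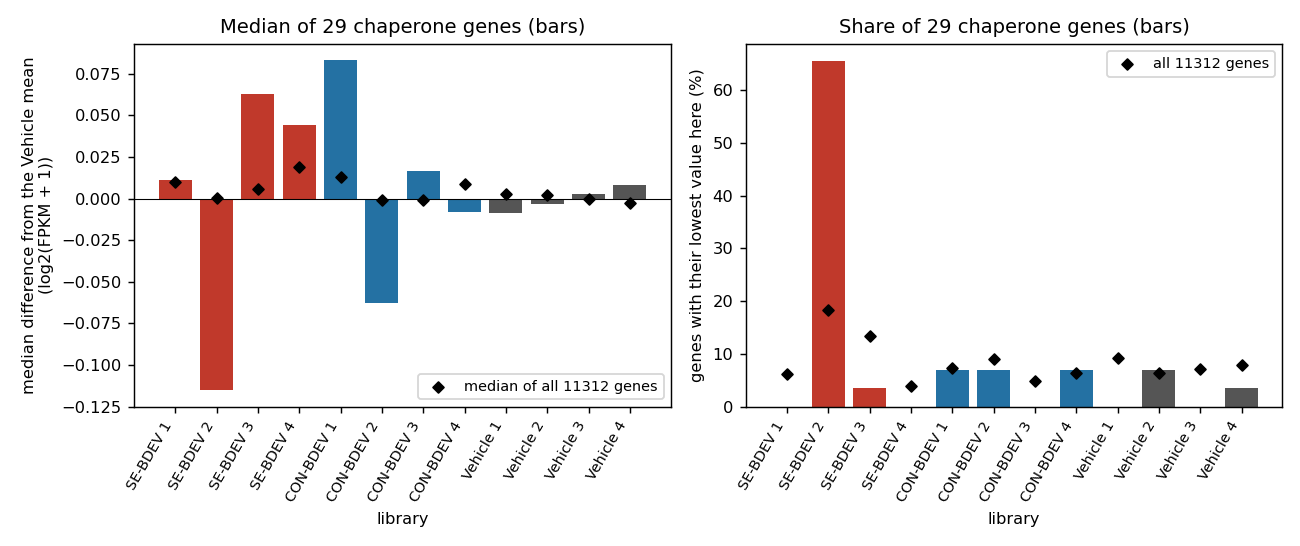
Left, the median over 29 chaperone genes of log2(FPKM + 1) minus the Vehicle mean in each library (bars) beside that of all 11312 genes (diamonds); right, the percentage of the 29 genes with their lowest value of 12 in that library. SE-BDEV replicate 2 has the lowest median, −0.12, and holds the lowest value for 65.5% of the set beside 18.4% of all genes.

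Vehicle libraries were closer to one another. On the log2 scale the median SD over the 29 genes was 0.09 for SE-BDEV, 0.07 for CON-BDEV and 0.02 for Vehicle libraries, beside 0.09, 0.07 and 0.06 over all genes. Thus the spread of the set was at that of all genes in the BDEV groups and below it in Vehicle. The values over all genes were not matched to the set for expression level. In SE-BDEV 4 of the 29 genes, Hspa8, Dnajb1, Bag3 and Ahsa1, were among the tenth of genes with the largest SD, in CON-BDEV 1, Dnajb1, and in Vehicle 0. The share of chaperones in the summed FPKM was 1.88% in SE-BDEV replicate 2 and 1.99% in CON-BDEV replicate 2. It was 2.06% to 2.20% in the other 6 BDEV libraries. The estimated depth was 13500000 fragments for SE-BDEV replicate 2 and 12600000 for CON-BDEV replicate 2, the lowest estimate of the 12. For SE-BDEV replicate 3, which had the highest share (2.20%), the estimate was 12800000. The part of depth in these values was not tested.

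Calls for the set changed with the libraries in the fit. Without replicate 2, 3 of 29 genes passed for SE-BDEV against Vehicle (Hsph1 and Bag3 rose, Hspa9 fell), where 2.79% of all 11299 genes did. For CON-BDEV without its replicate 2, 2 passed (Hsph1 rose, Hspa9 fell), where 3.68% of all 11304 did. Leaving out CON-BDEV replicate 1 also gave 2 (Hspa9 and Cct5 fell), and leaving out CON-BDEV replicate 3 or 4 or any Vehicle library gave 0. For all BDEV libraries against Vehicle, 3 passed without SE-BDEV replicate 2 (Hspa4, Hsph1 and Hspa9), where 4.51% of all genes did. With replicate 2 of both groups left out, an addition made after the data were seen, 4 of 29 passed for all BDEV libraries against Vehicle, where 6.15% of all 11306 genes did. Hsph1, Bag3 and Hspa4 rose and Hspa9 fell. Since replicate 2 was singled out after its chaperone values were known, the counts without it are a description.

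**Figure D5:**
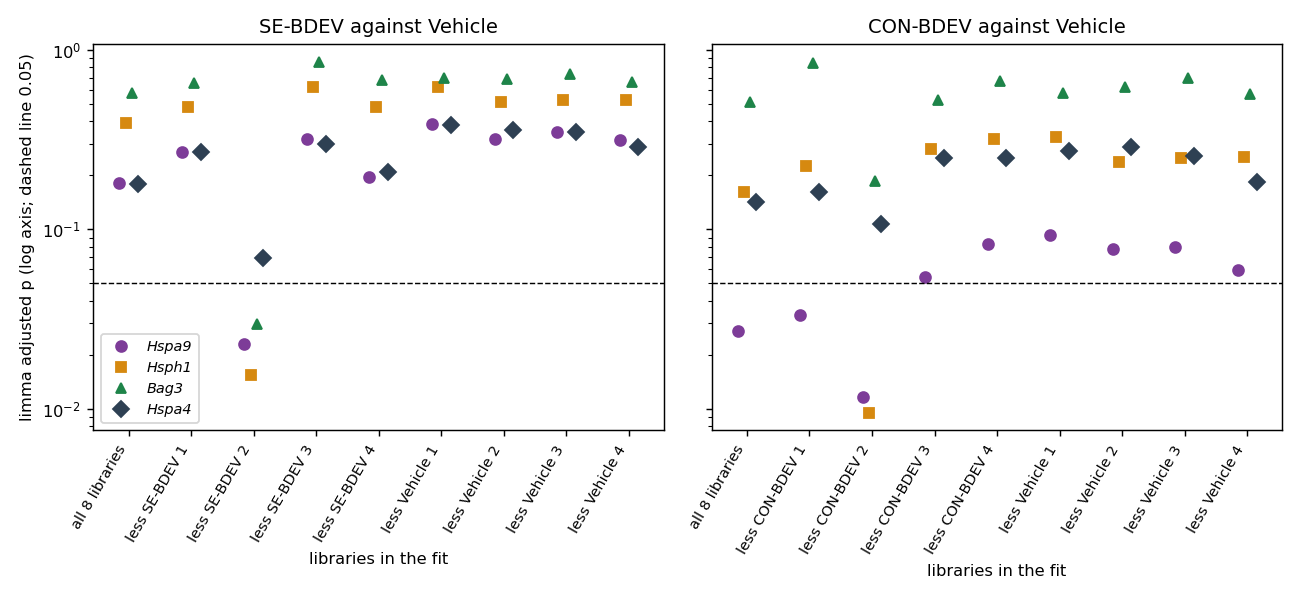
Limma adjusted p (log axis, dashed line at 0.05) of Hspa9, Hsph1, Bag3 and Hspa4 against Vehicle with all 8 libraries and with each library left out, for SE-BDEV (left) and CON-BDEV (right). For SE-BDEV points fall below the line only without SE-BDEV replicate 2; for CON-BDEV Hspa9 is below it with all libraries and without CON-BDEV replicate 1 or 2, and Hsph1 only without CON-BDEV replicate 2.

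The direct comparison asked whether the source of the vesicles mattered for these genes. When SE-BDEV was set against CON-BDEV with all 12 libraries fitted, limma called 0 of 29 and 0% of all 11312 genes, 0 of the 29 had an unadjusted p under 0.05 (2.62% of all genes did), and 0 of the 29 groups were without overlap (1.39% of all). Log2 differences, SE-BDEV minus CON-BDEV, ran from −0.05 (Hspe1) to 0.07 (Dnajb4). The 95% intervals of the 29 differences lay within −0.31 and 0.26, the widest being that of Hspa8. For Hspa9 the interval was −0.12 to 0.08 and for Hspa4 −0.04 to 0.07. For Hsph1 it was −0.18 to 0.17 and for Bag3 −0.14 to 0.25. The intervals give differences compatible with these data, and the smallest difference that could be called with 4 libraries a group was not computed.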

How the data were processed

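Expression was measured in 12 libraries (SE-BDEV, CON-BDEV and Vehicle, 4 each), grouped by their titles. The deposited FPKM values are the authors' own; the submitters' processing notes name TopHat2, Cuffdiff and the build mm9, without versions. Per the file headers, the deposited comparison tables hold the authors' group FPKM, log2 fold changes, a test statistic (score), p-values and q-values; log2 fold changes and scores were not used. The 4 Vehicle libraries stand in both FPKM tables, where they differed by at most 0.0336% in the median, and their mean was used across tables; no BDEV library stands in both.

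Log2(FPKM + 1) was fitted with limma 3.58.1 in R 4.3.3 (moderated variances, trend on mean expression; two-sided tests), keeping genes that averaged 1 FPKM or more, and p-values were adjusted by Benjamini-Hochberg over all genes tested. Comparisons with Vehicle used 8 libraries of 1 table; other comparisons used all 12. The fit was also run on simulated data, drawn as independent normal values with the same spread in all groups. Those data lack the unequal spreads and the joint low values of libraries seen here, so they do not show how the fit behaves under them. Fold changes on this scale understate those of low genes. The members and lists were chosen with earlier results of these data known. The text names all 32 members, other listed genes that passed, and some cell type markers; the summed oligodendrocyte and forebrain neuron markers are not reported here. Depth was estimated from FPKM up to 0.05 of genes with 1 GENCODE transcript of 1500 to 8000 bases, read as 1 fragment, and is approximate. Alternatives were other pseudocounts (0.1, 0.5), filters (none, 5 FPKM), median scaling, a replicate block, no trend, another set of libraries, the authors' q-values and each library left out. Python 3.11.15 with matplotlib 3.10.9 made the figures.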

Additional observations from a re-analysis of the deposited data

Results flagged for a closer look

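In groups of 4 libraries, a value was marked where its gap to the nearest library took up more of the group's range than Dixon's 95% critical value for 4. This marked 11 of 96 combinations of gene and group. About 1 in 20 would be marked for independent, normally distributed values, but many of these genes were low together and some lie near 0. A group with only 1 value above 0 gives 1.000 whatever that value is. No share over all genes is given here, so the count is a description. SE-BDEV replicate 2 was marked as low for Hspa8 (0.850 of the range), Hspa4l (0.930), Hsp90aa1 (0.942) and Stip1 (0.909). SE-BDEV replicate 3 was marked as high for Hspe1 (0.920). Vehicle replicate 1 was marked as low for Hspe1 (0.892) and as high for Dnajb4 (0.854), within a Vehicle range of 307 to 316 FPKM and 6.78 to 7.29 FPKM. The other marks were on genes near 0: Hspa1a in SE-BDEV replicate 3 (1.000, at 0.109 FPKM) and CON-BDEV replicate 3 (0.839, at 0.303 FPKM), and Hspb1 in CON-BDEV replicate 1 (1.000, at 0.0998 FPKM) and Vehicle replicate 2 (1.000, at 0.266 FPKM).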

How the results depend on the processing

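The count of called members was 0 of 29 for SE-BDEV against Vehicle under the alternatives run other than leave-one-out, and 0 to 3 with each replicate left out, 3 being the count without SE-BDEV replicate 2. For CON-BDEV against Vehicle it was 1, and 0 with no filter on low values, with no trend, in a fit of all 12 libraries and by the authors' deposited q-value. With each replicate left out it was 0 to 2. The 12-library fit shares 1 spread among the 3 groups; the cause of the other losses was not tested. For all BDEV libraries against Vehicle it was 0, with 0 to 3 when each replicate was left out and 4 without replicate 2 of both BDEV groups. For SE-BDEV against CON-BDEV it was 0 throughout. With the replicate number as a block, the CON-BDEV count was 0 (Hspa9 limma adjusted p = 0.0889) and the other counts stayed at 0. Deviations of same-numbered SE-BDEV and CON-BDEV libraries correlated across genes at 0.196, 0.298, −0.074 and −0.123 for replicates 1 to 4. The replicate 2 pair had the highest of these values. They differ in sign, and no values of differently numbered libraries are given beside them, so they do not settle whether the numbers pair libraries. The main fits did not pair libraries by number. By library name, same-numbered SE-BDEV and CON-BDEV libraries follow each other and the Vehicle libraries come last. What this order stands for is not stated, and its part was not tested. Signs changed in 30, 15, 69 and 35 of 464, 464, 493 and 580 alternative values of single members, in the order SE-BDEV against Vehicle, CON-BDEV against Vehicle, SE-BDEV against CON-BDEV and all BDEV libraries against Vehicle; none of these values was called. Hspa1a, Hspa1b and Hspb1 are too low to compare.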
